A study of Arabidopsis thaliana with 6 samples.

Results

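Gene expression in rosettes of Arabidopsis thaliana was measured on spotted arrays, and the 59 EST clones described here are those with the lowest ratios of SAS1-HA plants to untransformed plants. They are 59 of 11926 clones on the array. SAS1-HA plants overexpress SAS1 as a fusion with HA, a short epitope tag, and the untransformed plants carry no transgene. Both lines were grown for 3 weeks in long days, and RNA came from rosettes of 3 to 4 weeks. The labels name no more than 1 overexpressing line. The promoter that drives the transgene and the number of pooled plants are not given in the sources used here. Each of 6 arrays carried both lines, SAS1-HA in Cy5 and untransformed in Cy3 on replicas 2, 3 and 6, and SAS1-HA in Cy3 and untransformed in Cy5 on replicas 1, 4 and 5, per the labels.

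The 59 clones were chosen by their measured ratios on replicas 2, 3, 4 and 5, which share 1 scan day. For each spot and line the local background was subtracted from the intensity, values under 50 were set to 50, and the log2 ratio of SAS1-HA over untransformed was taken. The median over all named spots was then subtracted on each array. A clone was taken when its mean over the 4 arrays was at most -2, which is 4-fold lower in SAS1-HA, and when it was below 0 on each of the 4. The values of these 4 arrays therefore describe the clones, and no test of the difference between the lines was made on them. Replicas 1 and 6 were scanned on separate earlier days and took no part in the choice.

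Serpins form a family of proteins best known for blocking proteases. A protease that cuts the exposed reactive loop of a serpin is trapped in an inactive complex with it. The series title places SAS1 in the crosstalk of hormones in plant defense. In Arabidopsis this crosstalk is best known between salicylic acid, which acts mainly against pathogens that feed on living cells, and jasmonate with ethylene, which act mainly against insects and pathogens that kill cells. An expressed sequence tag, or EST, is a single read of a cloned cDNA, so 1 gene can be present as several clones.

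The files identify the clones by EST identifiers alone. None of the 11926 clones was paired with a gene by the gene table used here (0 matches), so no gene name, role or sequence is given, and neither SAS1 nor markers of the rosette could be looked up to check the labels. Identifiers are printed for 4 clones. Whether some of the 59 clones come from the same gene is not known. In RNA from whole rosettes, fewer cells of a type and less RNA per cell cannot be told apart.

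The arrays used to choose the clones and the other arrays differ in how far their direction is settled. Over the 11917 clones with a value on replicas 1 and 6, the log2 ratios of these arrays, turned by the labels, correlated at -0.65 (Pearson, across clones, which are not independent). By its label replica 1 holds SAS1-HA in Cy3. In the scanner files the control image is the untransformed channel on 5 arrays, and on replica 1 it is the Cy3 channel. Replica 6 also stood apart from the arrays that chose the clones: over all clones it correlated at 0.08, 0.10, -0.07 and 0.04 with replicas 2, 3, 4 and 5, and replica 1 as labelled at -0.05, -0.13, 0.01 and -0.09, against 0.71 to 0.85 among replicas 2 to 5. Which way replica 1 runs remains unsettled, so its values are given as labelled and with the sign turned. The median spot intensity of an array ran over the 6 arrays from 1360 to 2031 in SAS1-HA and from 1137 to 2511 in untransformed plants. Precision is limited by how few arrays there are.

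On replicas 2 to 5 the 59 clones had mean log2 ratios of -4.53 to -2.01, with a median of -2.54, or 5.8-fold lower in SAS1-HA. The mean was at most -4, or 16-fold lower in SAS1-HA, in 2 clones, and between -4 and -3 in 15. Of the other clones 13 had means between -3 and -2.5, and 29 lay between -2.5 and -2. The rule that chose the clones picked 0.495% of all clones. Another 274 clones met the mirror rule on the raised side. The last clone inside the threshold had a mean of -2.01 and the first one outside had -1.998. At the edge, membership rests on a difference far below the spread between arrays.

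The 4 arrays gave like medians for the 59 clones, at -2.54, -2.74, -2.49 and -2.57 on replicas 2, 3, 4 and 5. The SD of a clone over the 4 arrays had a median of 0.48 on the log2 scale and ran from 0.10 to 1.11, and it was over 1 in 3 clones. The weakest single value was -0.59, on replica 5. Arrays with the same tag in their image names and opposite dyes (2 with 4, and 3 with 5) differed by a median of 0.39 per clone, and those with the same dyes and another tag (2 with 3, and 4 with 5) by 0.56. Over all clones the order was the other way, at 0.43 and 0.28. Nothing in the sources used here says what the tag stands for.

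**Figure D1:**
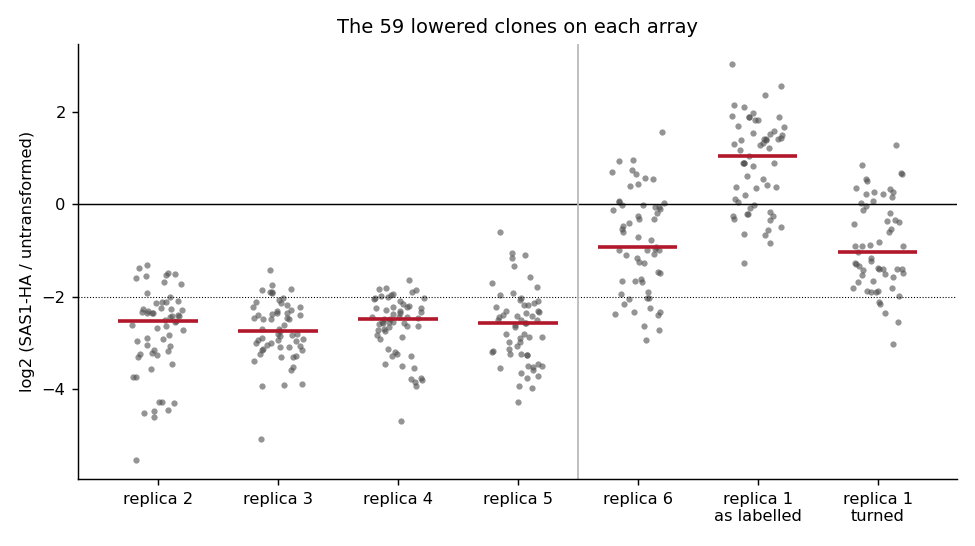
Each point is 1 of the 59 clones and each red bar the median on that array; the y axis is the log2 ratio of SAS1-HA over untransformed. Replicas 2 to 5 (floor of 50, median centring) chose the clones and have medians between -2.49 and -2.74; replica 6 (normexp and loess) has a median of -0.92, and replica 1 has 1.04 as labelled and -1.04 turned. The dotted line is the threshold of -2.

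Most of the 59 clones were measured well above background in both lines. The median intensity of a clone on replicas 2 to 5 ran from 37.4 to 10598 in SAS1-HA and from 335 to 57773 in untransformed plants, with medians over the clones of 896 in SAS1-HA and 8051 in untransformed plants. All 59 were above the 95th percentile of the blank spots on 4 of 4 arrays in untransformed plants, and 56 were so in SAS1-HA. No value of these clones in untransformed plants was at the floor of 50. In SAS1-HA 6 values of 2 clones were, so their ratios are understated. No spot of these clones was saturated. The highest SAS1-HA intensity lay under the lowest untransformed intensity over the 4 arrays for 58 of the 59 clones, which the rule nearly fixes (29.0% of all clones have this order).

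On replicas 2 to 5 most of these transcripts lay above the median clone of the line in untransformed plants, and most lay below it in SAS1-HA. The rule chose low ratios on these same arrays, which favours both, so the levels only describe the clones. The log2 level minus the channel's median averaged over replicas 2 to 5 had a median over the clones of -1.26 in SAS1-HA and 1.60 in untransformed plants. It was below 0 for 43 of the 59 in SAS1-HA and above 0 for 46 of them in untransformed plants. The range was wide, from -5.24 to 2.46 in SAS1-HA and from -2.91 to 4.52 in untransformed plants. The clone with the lowest ratio, N96898, stood at -3.91 in SAS1-HA and at 0.64 in untransformed plants, so it was not among the most abundant of the 59.

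N96898 had the lowest mean of all clones. Its intensity minus background was 64.6, 207, 131 and 141 in SAS1-HA and 4659, 4051, 4396 and 3053 in untransformed plants on replicas 2, 3, 4 and 5. The lines did not overlap, and SAS1-HA was above the blank spots on 4 of 4 arrays. Its log2 ratio was -4.53 ± 0.75 (SD, n = 4), a 23.0-fold difference. On replica 6 it had 333 in SAS1-HA and 2098 in untransformed plants, again lower in SAS1-HA. On replica 1 it had 1090 in the channel labelled SAS1-HA and 231 in the channel labelled untransformed, the opposite order.

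The clone with the second-lowest mean followed the same course and had 88.9, 82.3, 200 and 132 in SAS1-HA against 3188, 3560, 2525 and 3519 in untransformed plants on replicas 2 to 5. On replica 6 it had 409 in SAS1-HA and 2091 in untransformed plants. The clone with the third-lowest mean did not. It had 1137, 2056, 1214 and 1245 in SAS1-HA against 35247, 31606, 22161 and 19885 in untransformed plants on replicas 2 to 5, and on replica 6 only 554 in SAS1-HA and 619 in untransformed plants. Its strong signal in untransformed plants on replicas 2 to 5 was absent from both channels of replica 6 and of replica 1, where it had 587 in the channel labelled SAS1-HA and 542 in the other. These clones were taken in order of rank.

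N96121 had the lowest mean of replicas 1 and 6 as labelled among the other 58 clones. On replicas 2 to 5 it had 997, 849, 942 and 477 in SAS1-HA and 10376, 8283, 6615 and 6356 in untransformed plants, with no overlap and a log2 ratio of -2.84 ± 0.35 (SD, n = 4). On replica 6 it had 1213 in SAS1-HA and 2350 in untransformed plants, and on replica 1 it had 3371 in SAS1-HA and 3876 in untransformed plants as labelled. The gap between the lines was smaller on both of these arrays than on any of the 4 that chose it. Choosing clones by low ratios on those 4 arrays favours a smaller gap elsewhere, so no conclusion is drawn from the sizes.

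H76582 and N65753 had the highest ratios of the 59 clones on replica 6 after normexp background correction and loess normalization. With the processing used to choose the clones N65753 was the highest there, at 0.89, and H76582 the third, at 0.86. N65753 was among the brightest of the 59 clones in untransformed plants on replicas 2 to 5, with 3338, 5073, 3049 and 3649 in SAS1-HA against 50120, 42475, 57068 and 55468 in untransformed plants, a log2 ratio of -3.32 ± 0.47 (SD, n = 4). On replica 6 it had 1906 in SAS1-HA and 1055 in untransformed plants, so the order was turned and the untransformed signal was far below that on replicas 2 to 5. On replica 1 it had 2332 in SAS1-HA and 3283 in untransformed plants as labelled. H76582 had 278, 395, 434 and 428 in SAS1-HA and 2779, 2609, 2162 and 1485 in untransformed plants on replicas 2 to 5, a log2 ratio of -2.07 ± 0.58 (SD, n = 4). On replica 6 it had 459 in SAS1-HA and 260 in untransformed plants, and the untransformed value was not above the blank spots, so its ratio there is uncertain. On replica 1 it had 133 in SAS1-HA and 216 in untransformed plants as labelled, and the value in SAS1-HA was not above the blank spots.

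**Figure D2:**
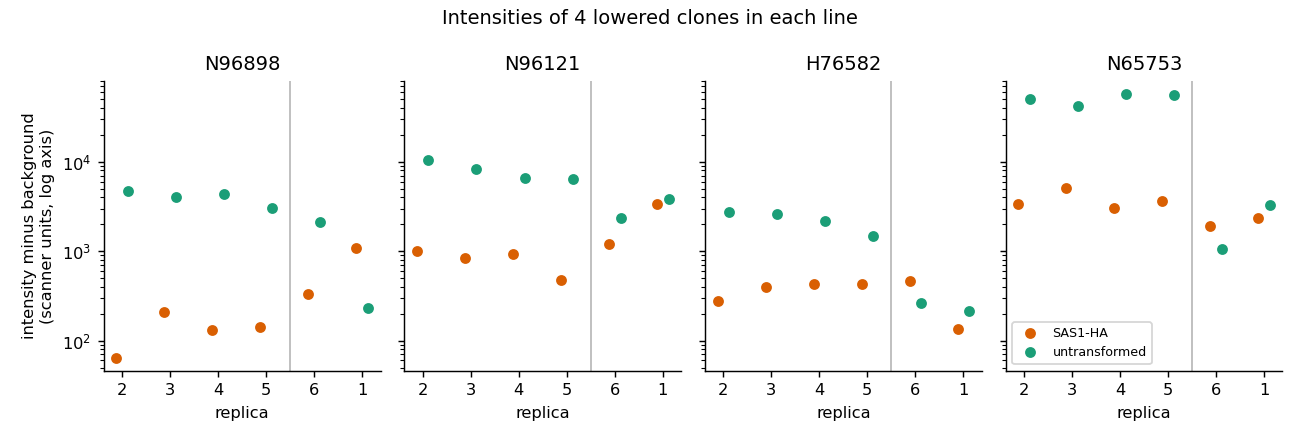
Intensity minus local background (scanner units, log axis) of 4 clones in SAS1-HA (orange) and untransformed plants (green) on each array; replicas 2 to 5 stand left of the grey line, replicas 6 and 1 (as labelled) right of it. N96898 keeps its order on replica 6 (333 in SAS1-HA and 2098 in untransformed plants) and has the opposite order on replica 1, while N65753 has 1906 in SAS1-HA and 1055 in untransformed plants on replica 6.

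Whether the clones were also lower in SAS1-HA on arrays that had not chosen them was read from replicas 6 and 1, on ratios after normexp background correction (offset 50) and loess normalization. On replica 6 the 59 clones had a median log2 ratio of -0.92, with a range of -2.93 to 1.56. Of them 46 (78.0%) were below 0, against 49.6% of all clones, and 25 (42.4%) were at least 2-fold lower, against 4.59% of all clones. As 1 array it allows no test, and the size is not set against that on replicas 2 to 5, whose values chose the clones.

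On replica 1 as labelled the 59 clones had a median of 1.04, with a range of -1.28 to 3.03. Of them 44 (74.6%) were above 0, that is higher in SAS1-HA, against 49.9% of all clones, and 30 (50.8%) were at least 2-fold higher, against 3.45% of all clones. With the sign of replica 1 turned the median is -1.04, and the same 44 clones are lower in SAS1-HA. Stated by dye, 41 of the 59 clones (69.5%) were lower in Cy5 than in Cy3 on both replica 6 and replica 1, against 35.4% of all clones. As labelled 5 clones were lower in SAS1-HA on both arrays and 3 were higher on both. The ratios of the 274 raised clones on these arrays depended on the processing. With normexp and loess their median was 0.04 on replica 6, with 146 above 0, and -0.04 on replica 1 as labelled, with 111 above 0. With the processing used to choose the clones it was 0.29 on replica 6, with 207 above 0, and -0.33 on replica 1 as labelled, with 46 above 0.

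Limma was fitted to replicas 1 and 6 over 11917 clones, with the dyes as labelled and Benjamini-Hochberg adjustment. No clone passed an adjusted p of 0.05, so none of the 59 clones was called lower (background 0%) or higher (background 0%). As labelled these arrays correlated at -0.65 over all clones and at -0.82 over the 59. Opposed ratios cancel in the mean and widen the spread, so this fit could hardly call a clone. No conclusion is drawn from its lack of calls. The smallest adjusted p was 0.99995, and 25 of all clones, 1 of them among the 59 and higher in SAS1-HA, had an unadjusted p under 0.05. The median log2 ratio of the 59 clones was 0.03, and it was 0.01 over all clones. N96898 was at -0.45 (95% interval -2.106 to 1.199), N96121 at -0.65 (-1.59 to 0.29), H76582 at 0.14 (-1.12 to 1.40) and N65753 at 0.15 (-0.88 to 1.19). The intervals of N96898 and H76582 hold a 2-fold difference in either direction.

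With replica 1 turned, limma called 33 of the 59 clones (55.9%) lower in SAS1-HA, against 11.5% of all clones, and 4 (6.78%) higher, against 10% of all clones. The other 22 did not pass. The 33 had log2 ratios of -2.59 to -0.71 with a median of -1.64 and adjusted p up to 0.0144, and 6 of the 59 clones were at least 4-fold lower. With the same processing their median on replicas 2 to 5 was -2.55, but those arrays chose the clones, so the sizes are not compared. In this reading SAS1-HA is in Cy5 on both arrays, so the line and the dye cannot be told apart. The turn was prompted in part by the correlation of -0.65 between these arrays over all clones. Turning makes their ratios agree more, so the adjusted p-values in this reading partly follow from that choice. In 2 of the 33 the SAS1-HA signal was not above the blank spots on either array, so their ratios are not measured levels of both lines. In limma with n = 2 arrays N96898 fell by 2.26 (adjusted p 1.35e-09) and N65753 rose by 0.80 (adjusted p 0.0063) on the log2 scale. N65753 and H76582 were named for high ratios on replica 6, 1 of these 2 arrays. Their values in this fit therefore partly follow from that choice. H76582 is among the 4 called higher, but in this reading its untransformed signal was not above the blank spots on either array, so no size is given. N96121, at -0.33 with an adjusted p of 0.341, did not pass.

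**Figure D3:**
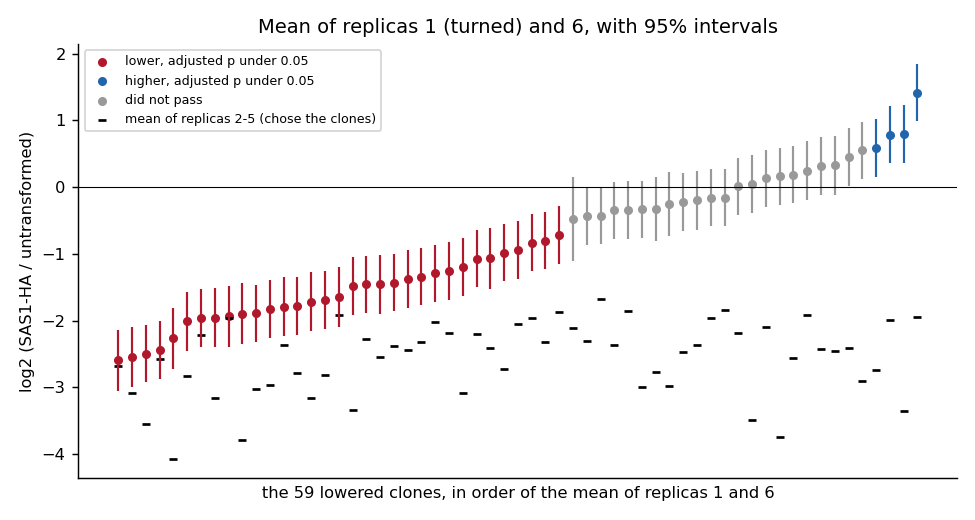
Each clone's mean of replicas 1 (turned) and 6 as log2 of SAS1-HA over untransformed, with its 95% limma interval, in order of mean. Black dashes give the mean of replicas 2 to 5 with the same processing. Those arrays chose the clones, so the sizes are not compared. Red points (33) were lower, blue points (4) higher and grey points (22) did not pass an adjusted p of 0.05, and the red points run from -2.59 to -0.71; the blue point farthest right is H76582, whose untransformed signal was not above the blank spots.

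The effect of the dyes on these clones was measured on replicas 2 to 5, where each dye orientation has 2 arrays. The dye coefficient is the amount on the log2 scale that is added where SAS1-HA is in Cy5 and subtracted where it is in Cy3. For the 59 clones it had a median of -0.01 and a range of -0.73 to 0.39, and it exceeded 0.5 in size in 2 clones. In limma no clone of 11926 passed, with a smallest adjusted p of 0.161, so none of the 59 was called lower (background 0%) or higher (background 0%). At an unadjusted p under 0.05 there were 9 of the 59 clones (15.3%) and 2376 of all clones (19.9%). Both shares exceed the 0.05 that chance alone would give if the dyes had no effect. With so few arrays the lack of calls therefore does not show that the dyes had none. The median size of the dye coefficient was 0.16 both for the 59 clones and for all clones. Across the 59 clones the dye coefficient correlated at -0.01 with the mean Cy5/Cy3 ratio of replicas 1 and 6 (Pearson, n = 59 clones that share the arrays), and at 0.15 across all clones. The part of dye bias in the ratios of replicas 1 and 6 themselves was not tested.

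On the arrays that had not chosen them the 59 clones lay far apart. By replica 6 they fall into 25 clones at least 2-fold lower in SAS1-HA (median -1.95), 21 between 2-fold lower and equal (median -0.41) and 13 above 0 (median 0.56). This division was made after the values were seen and gets no test, but replica 1 took no part in it. The first 25 had a median of 1.66 on replica 1 as labelled, and 24 of the 25 (96.0%) were at 1 or more there. Among all 547 clones at least 2-fold lower on replica 6, 36.0% were at 1 or more on replica 1, with a median of 0.83. The 547 were not matched to the 25 for how low they lay on replica 6, so these shares are only a description. The other sets had medians of 0.42 and -0.26 on replica 1. Across the 59 clones replicas 6 and 1 correlated at -0.82 as labelled, while the mean of replicas 2 to 5 correlated at 0.37 with replica 6 and at -0.21 with replica 1 (Pearson, n = 59).

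**Figure D4:**
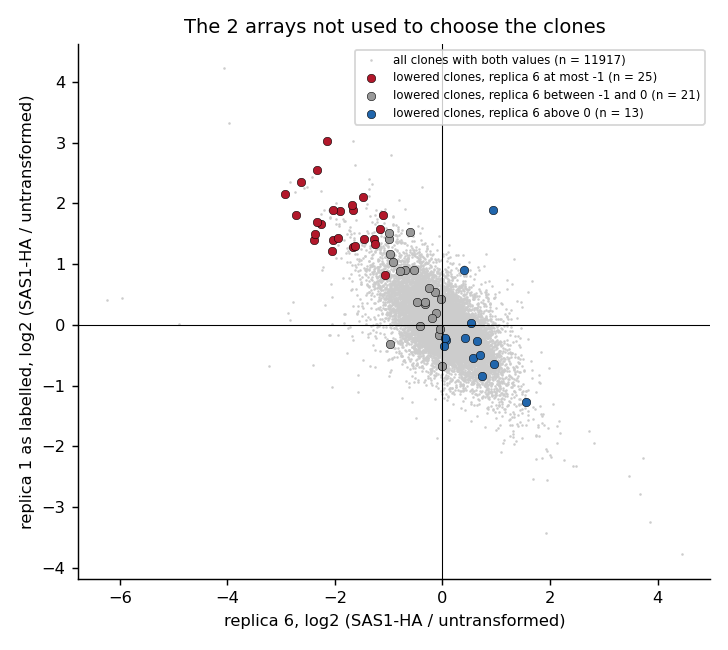
Log2 ratio of SAS1-HA over untransformed on replica 6 (x axis) and on replica 1 as labelled (y axis), for all 11917 clones with both values (grey dots) and for the 59 lowered clones in 3 colours by their value on replica 6. The 25 red points lie between 0.82 and 3.03 on replica 1, and the 13 blue points have a median of -0.26 there.

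The 3 sets had overlapping ratios on the arrays that chose them. The median mean was lower in the set at least 2-fold lower on replica 6, at -2.87, than in the others, at -2.43 and -2.44. Their levels in untransformed plants there had medians of 1.68, 1.35 and 1.41 over the median clone on the log2 scale. The sets were made by the ratio on replica 6, and the clones by the ratio on replicas 2 to 5, so these choices force a shift between the lines from one set of arrays to the other. The levels on replica 6 are therefore given only to describe in which line they lay lower or higher. For the 13 clones above 0, the level on replica 6 minus that on replicas 2 to 5 had a median of -0.05 in SAS1-HA and -2.38 in untransformed plants. For the 25 clones at least 2-fold lower on replica 6, the median change was 0.30 in SAS1-HA and -0.72 in untransformed plants. For the 21 in between, the median change was -0.05 in SAS1-HA and -1.35 in untransformed plants. Among the 59 clones, 4 (6.78%) were lower on replica 6 by at least 1 in SAS1-HA and 36 (61.0%) in untransformed plants. Over all clones, which were not chosen by a ratio, these were 9.54% in SAS1-HA and 14.7% in untransformed plants.

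The same comparison with replica 1 depends on its dyes. With its channels turned, the 13 clones had a median change of -0.15 in SAS1-HA and -2.83 in untransformed plants. The 25 clones had a median change of 0.39 in SAS1-HA and -0.83 in untransformed plants. As labelled the 25 clones were higher by a median of 2.36 in SAS1-HA and lower by a median change of -2.53 in untransformed plants than on replicas 2 to 5. The clones were chosen for low ratios on replicas 2 to 5, which partly fixes these changes too, and plants, labelling and scan day cannot be told apart between the arrays.

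**Figure D5:**
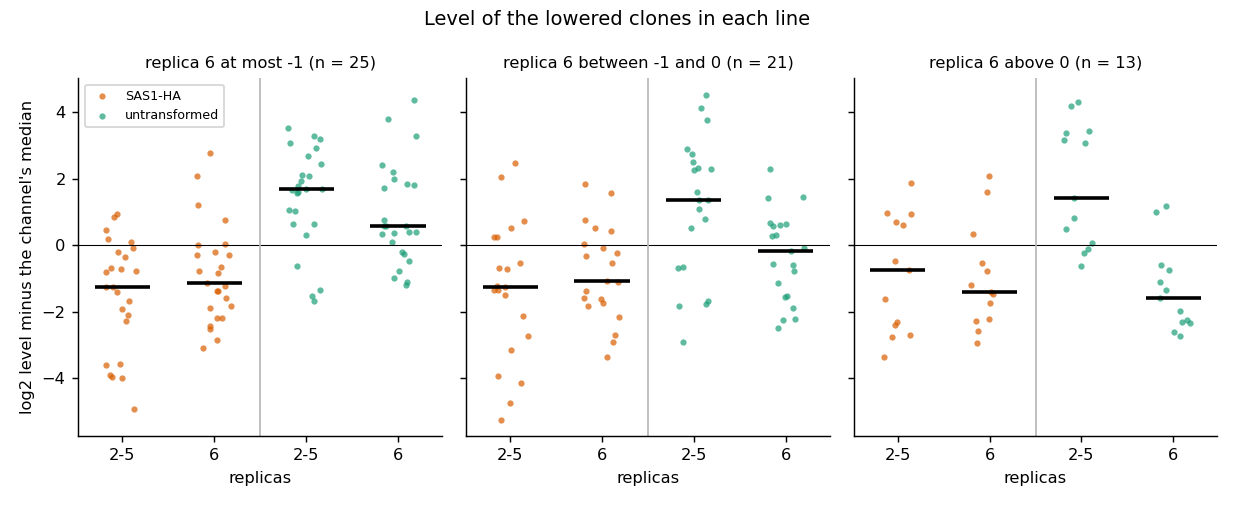
Log2 level of each lowered clone minus the median of all clones in the same channel, in SAS1-HA (orange) and untransformed plants (green), as the mean over replicas 2 to 5 and on replica 6; black bars are medians and the panels divide the clones by their ratio on replica 6. In the right panel the untransformed median is 1.41 on replicas 2 to 5 and -1.59 on replica 6, while the SAS1-HA medians are -0.74 and -1.41.

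The 59 clones were spread over the slide. They came from 29 of the 32 printing blocks, with at most 5 in a block, and each had 1 spot. Only 2 lay next to another of the 59. Their 430 neighbouring clone spots had a median log2 ratio of -0.03 on replicas 2 to 5, and 4.88% of them were at most -1, against 4.62% of all clones. By the letters that open the identifiers, which are accession prefixes of public EST entries, 21 of the 59 clones (35.6%) began with N, against 24.1% of all clones. Another 19 (32.2%, against 37.3%) began with T, 9 (15.3%, against 12.3%) with H, 5 (8.47%, against 6.51%) with W, 3 (5.08%, against 8.64%) with AA and 2 (3.39%, against 11.2%) with R. Of the 25 clones at least 2-fold lower on replica 6, 12 began with N and 4 with T, and of the 13 above 0, 4 began with N and 6 with T. These shares are a description, with no test.

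The authors' deposited table of log2 ratios gave the same direction for the 59 clones. It comes from the same arrays, so this is a check of the processing and not an independent measurement. In the authors' deposited table all 59 were below 0 on each of replicas 2 to 5, and 58 had a mean of at most -2. Their medians in the authors' deposited table were -2.64 on replicas 2 to 5, -0.97 on replica 6 and 1.03 on replica 1 as labelled. In the same table N96898 had a mean of -4.71.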

How the data were processed

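Rosette RNA was amplified with T7 polymerase and its cDNA coupled to Cy3 or Cy5, per the labels' protocols. The deposited scanner files hold an intensity and a local background per spot and channel, on a linear scale, not background-subtracted, per the file headers. The authors also deposited log2 ratios of channel 2 over channel 1. Their correlations with the ratios computed here were 0.90 to 0.98, and their column medians, turned by the labels, were -0.0589 to 0.0144. Their normalization and centring are unknown. Clone names on replica 6, whose file holds none, were taken by spot number from replica 2, and 9 ignored spots of replica 6 were left out of the loess ratios. The 323 blank spots and 13 spots that carry no name were not counted as clones, and 26 clones with 2 spots were averaged. The 95th percentile of the blank spots in each channel of each array set the level for being above the blank spots.

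The choice of clones used a floor of 50 and median centring. Tests used limma 3.58.1 in R 4.3.3 after normexp (offset 50) and loess, with Benjamini-Hochberg adjustment over all clones. The fits were also run on simulated data. No outcome is given here, and that run does not show that the p-values hold for these arrays. Replicas are not stated to be separate plants, and the labels name 2 biological experiments without saying which arrays belong to each, so the spread behind each p-value is that of arrays and may be technical. The rule, the clones and the comparisons were chosen with earlier results of these data known. Identifiers were limited to 4 by rule: the lowest mean on replicas 2 to 5, the lowest mean of replicas 1 and 6 as labelled among the rest, and the 2 highest on replica 6. Lists of serpin, defense, protease, photosynthesis and marker genes were not analysed here, as no clone has a gene name. Alternatives covered floor, background, normalization, the authors' table, dim clones, the sign of replica 1 and each array left out.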

Additional observations from a re-analysis of the deposited data

Results flagged for a closer look

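Each of 11 measures was checked for a single array whose gap to the nearest other exceeded Dixon's critical value at the 95% level, a level that is meant to pass about 1 in 20 measures by chance. In 3 measures, which share arrays and clones, an array stood apart. The share of the 59 clones below 0 was 25.4% on replica 1 as labelled, against 78.0% on replica 6 and 100% on replicas 2 to 5. The rule fixes the shares of 100%, so the intended rate of the check does not hold for this measure. N96898 was at 1.81 on replica 1 as labelled, with each other array at -2.72 or lower on the log2 scale. Its choice by the lowest mean on replicas 2 to 5 favours such a gap. H76582 was at 1.56 on replica 6 and at -1.28 or lower on the others. It was named for being the highest of the 59 clones on replica 6. The rule also put it below 0 on replicas 2 to 5. This gap therefore partly follows from how H76582 was chosen, and no conclusion is drawn from it. Its untransformed signal on replica 6 was not above the blank spots. All 3 were chosen with the clones' values known, and each rests on the dye label of replica 1. With that array turned, N96898 is at -1.81 and H76582 at 1.28 there, the side of 0 on which each lies on replica 6.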

How the results depend on the processing

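The number of clones that meet the rule was 59 as reported, 57 and 59 with floors of 25 and 100, 60 without background subtraction, 50 with normexp and loess (48 of them among the 59), 70 with the authors' log2 ratios (58 among the 59) and 56 to 63 with 1 array left out. Turning replica 1 changed the earlier arrays from 0 clones past the threshold in limma to 2557 (1192 higher and 1365 lower), with 4 of the 59 higher and 33 lower, and moved the median of the 59 on replica 1 to -1.04 with 44 below 0, and over both arrays to -0.95. The limma counts in both readings depend on the correlation of -0.65 between these arrays as labelled, over all clones. The median over both arrays ran from -0.92 (replica 1 left out) to 1.04 (replica 6 left out). With replica 1 turned, fits added after seeing the data called 30 to 36 of the 59 lower (32 of 53 without dim clones), and the authors' log2 ratios called 1008 clones (473 higher and 535 lower). The dye coefficient called 0 to 13 clones with 1 array left out (0 to 1 higher and 0 to 12 lower), the 13 without replica 4, and 0 of the 59 in each such fit. H76582 over the earlier arrays as labelled changed sign, to -0.058 without background correction, -0.058 with subtraction and a floor of 50, and -0.043 with the rule's own processing, none past the threshold. The causes were not tested. No paired analysis was possible because there is no second group of arrays to share replicate numbers, and each ratio already pairs the lines within an array. On replicas 1 and 6, 51 and 48 of the 59 clones exceeded the blank spots in SAS1-HA and in untransformed plants, which limits ratios of the rest.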
